A study of Homo sapiens with 24 samples.

Results

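Small nuclear RNA (snRNA) and small nucleolar RNA (snoRNA) genes were taken from the RefSeq annotation of the hg38 assembly as all genes of those 2 biotypes on chromosomes 1 to 22 and X. There were 1350 of them among 59098 annotated genes, 154 snRNA and 1196 snoRNA genes. A gene was called marked in a library when a Myc peak reached within 1 kb of its span. Classes were read from the gene symbols, and hosts were the genes whose span contained the small RNA gene. The annotation lists the small Cajal body RNAs (SCARNA) under another biotype, so that class had no member and its genes are described beside the others. The rule for choosing genes uses the annotation alone and no peak value.

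CUT&Tag maps Myc by letting its antibody bring a transposase to the bound DNA, which the enzyme then cuts and tags for sequencing. It was applied to the human pancreatic carcinoma cell line MIA PaCa-2 with MED30 under a tet-on promoter, so that doxycycline turns on extra MED30, a subunit of the Mediator complex. The 2 groups were these cells at day 5 of doxycycline and the same engineered cells without doxycycline, with 1 Myc library in each. The design text asks whether extra MED30 alters the binding of other factors, and the other 22 of the 24 samples were not analysed here. Where the title gives day 5 of doxycycline, the labels' shared protocol gives 2 days, and the title was followed. Both groups carry the MED30 construct, peak lists hold no RNA with which to check its induction, and whether the line is 1 clone is not given in the sources used here. With 1 library per group there was no replicate check, so no difference between the libraries was tested.

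The snRNAs form the core of the spliceosome, the machine that removes introns from messenger RNA precursors. Most are made from genes of their own by RNA polymerase II, from promoters with a proximal sequence element that binds the SNAPc complex, while U6, U6atac and 7SK RNA are made by RNA polymerase III. The snoRNAs guide chemical changes on ribosomal RNA: box C/D snoRNAs (SNORD) direct ribose methylation and box H/ACA snoRNAs (SNORA) direct pseudouridylation. Most human snoRNAs lie in introns of host genes and are cut out of the host's transcript, and many hosts encode ribosomal proteins or are long non-coding RNAs whose main known product is the snoRNA. A few, such as U3 (SNORD3), U8 (SNORD118) and U13 (SNORD13), have promoters of their own. Myc is a transcription factor known for driving ribosome production, and with its partner Max it binds the E-box CACGTG and close variants of it.

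The promoters of 5 host genes are shown because a Myc peak next to an intronic snoRNA gene reached each of them. They were picked after their motifs were seen, for their motifs in 4 cases and for its peak in the case of ZFAS1, and are not typical of hosts. They were taken from RefSeq on GRCh38.p14 and run 5′ to 3′ on the strand of the gene, from 250 bases before a transcription start to 50 bases after it. Capitals mark CACGTG or CACGCG read on either strand, so that CGCGTG is CACGCG on the opposite strand. No promoter sequence of a snRNA or snoRNA gene was in the table used, and 200 of 260 hosts had one.
TOMM20, chr1:235128788-235129087, minus strand, host of SNORA14B: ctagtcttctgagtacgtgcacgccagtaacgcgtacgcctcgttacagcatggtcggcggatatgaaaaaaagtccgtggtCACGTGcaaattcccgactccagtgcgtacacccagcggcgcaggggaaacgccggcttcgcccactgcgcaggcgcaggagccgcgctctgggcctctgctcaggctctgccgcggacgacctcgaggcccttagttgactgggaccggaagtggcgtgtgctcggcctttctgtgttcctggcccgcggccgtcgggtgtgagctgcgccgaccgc
SNHG12, chr1:28581824-28582123, minus strand, host of SNORA16A: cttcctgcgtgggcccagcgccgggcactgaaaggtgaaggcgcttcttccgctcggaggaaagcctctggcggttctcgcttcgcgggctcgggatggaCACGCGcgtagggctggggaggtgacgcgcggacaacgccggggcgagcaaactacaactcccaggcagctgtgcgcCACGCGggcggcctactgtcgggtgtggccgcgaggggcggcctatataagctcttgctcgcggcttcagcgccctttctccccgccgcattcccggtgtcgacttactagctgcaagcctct
SNHG1, chr11:62855836-62856135, minus strand, host of SNORD25, SNORD26 and SNORD27: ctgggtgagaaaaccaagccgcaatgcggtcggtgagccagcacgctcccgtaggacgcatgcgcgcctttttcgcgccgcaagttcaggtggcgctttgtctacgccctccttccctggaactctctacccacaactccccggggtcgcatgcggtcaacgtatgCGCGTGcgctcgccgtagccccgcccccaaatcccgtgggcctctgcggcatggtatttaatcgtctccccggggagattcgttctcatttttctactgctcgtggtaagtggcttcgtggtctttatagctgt
SNHG29, chr17:16438737-16439036, plus strand, host of SNORD49A and SNORD49B: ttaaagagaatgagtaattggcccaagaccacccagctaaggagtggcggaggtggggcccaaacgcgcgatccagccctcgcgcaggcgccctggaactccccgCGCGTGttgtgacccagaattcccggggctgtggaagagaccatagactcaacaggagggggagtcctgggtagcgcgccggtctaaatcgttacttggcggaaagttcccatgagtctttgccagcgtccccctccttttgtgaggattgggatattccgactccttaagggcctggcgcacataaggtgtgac
ZFAS1, chr20:49278392-49278691, plus strand, host of SNORD12C: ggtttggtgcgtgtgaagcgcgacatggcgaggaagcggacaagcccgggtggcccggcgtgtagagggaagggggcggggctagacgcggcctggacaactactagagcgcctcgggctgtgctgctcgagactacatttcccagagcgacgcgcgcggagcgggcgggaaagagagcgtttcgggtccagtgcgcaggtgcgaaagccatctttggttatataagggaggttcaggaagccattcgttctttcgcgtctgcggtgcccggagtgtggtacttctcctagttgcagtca
TOMM20, which encodes a receptor of the mitochondrial import pore, had CACGTG beginning 168 bp before its start. SNHG12 had CACGCG at 150 and 73 bp before its start, SNHG1 at 84 bp and SNHG29 at 145 bp. ZFAS1 held none of these letters in this window and carried the strongest snoRNA-linked peak listed only at day 5. Peaks of both libraries reached the promoters of TOMM20, SNHG1 and SNHG29, and those of SNHG12 and ZFAS1 were reached at day 5 only. The marked letters of SNHG29 lay inside the peaks of both libraries, those of SNHG1 and SNHG12 inside the day 5 peak only, and that of TOMM20 inside the peak without doxycycline only. The day 5 summits at SNHG1, SNHG12 and ZFAS1 lay 324, 379 and 254 bp before the start, beyond the printed bases. At TOMM20 the summits lay after the start, by 185 bp at day 5 and 114 bp without doxycycline, also beyond the printed bases. Over all 34961 promoters of the table, 7.27% held CACGTG and 11.4% held CACGCG. Over the 163 promoters of hosts with a day 5 peak within 1 kb of a start, the shares were 17.2% and 22.7%. The variant CATGTG, also searched on both strands, was in 7.98% of these host promoters and 11.1% of all promoters. Of the 200 hosts with a start, 169 were protein-coding. Over protein-coding promoters alone, 8.34% held CACGTG, 14.2% held CACGCG and 8.93% held CATGTG. Over all 291 host promoters, CACGTG was in 10.7% and CACGCG in 14.8%, and over the 25 promoters of hosts with a marked snoRNA gene at day 5, CACGTG was in 1 and CACGCG in 4. A match gives only the letters present, occurrences of the motifs can overlap, and a gene can have several overlapping promoters in the table.

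At day 5, 80 of the 1350 genes were marked (5.93%, exact 95% interval 4.73 to 7.32%), and without doxycycline 55 were (4.07%, 3.08 to 5.27%). Over all annotated genes the marked shares were 14.7% at day 5 and 7.95% without doxycycline. The 2 biotypes stood apart. Of the snRNA genes, 40 of 154 were marked at day 5 (26.0%, 19.2 to 33.6%) and 24 without doxycycline (15.6%, 10.2 to 22.3%). Of the snoRNA genes, 40 of 1196 were marked at day 5 (3.34%, 2.4 to 4.53%) and 31 without doxycycline (2.59%, 1.77 to 3.66%). The snRNA shares were thus above those of all genes and the snoRNA shares below them, in both libraries. A longer span gives a peak more places to reach, and span lengths were not matched in these comparisons. The part that length has in the shares was not tested. Most marked snRNA genes were in repeated families described further on: the U1, variant U1 and U2 classes and 1 stretch of chromosome 17. These gave 4, 7, 3 and 12 of the 40 at day 5, and 3, 3, 2 and 8 of the 24 without doxycycline. With these families left out, the snRNA shares too were below those of all genes in both libraries. The snRNA genes left were mostly SNAR genes, described below and all unmarked, and genes with only a locus number. The RNU4, RNU5 and RNU6 classes stayed above the shares of all genes. They had 3 of 3, 3 of 5 and 3 of 6 genes marked at day 5, and 1, 2 and 2 without doxycycline. Other non-coding classes spanned both sides, with 28.2% of 443 transfer RNA genes and 4.81% of 1911 microRNA genes marked at day 5, and 18.3% and 2.25% without doxycycline. These intervals treat genes as independent, although neighbours can share 1 peak. Joined into 1090 loci of genes within 5 kb of each other, 66 loci were marked at day 5 and 47 without doxycycline.

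Within each biotype the share ranged widely between classes. Of 42 snRNA genes with a family symbol, leaving out the SNAR genes, 26 were marked at day 5 (61.9%, 45.6 to 76.4%) and 15 without doxycycline (35.7%, 21.6 to 52%). All 28 SNAR genes, small RNAs that bind the protein NF90 and that RefSeq counts as snRNA, were without a peak in both libraries, which allows shares of up to 12.3% (the upper bound of the exact 95% interval). Among the 84 snRNA genes with only a locus number, 14 were marked at day 5 and 9 without doxycycline, of which 12 and 8 lay in 1 stretch of chromosome 17 described further on. SNORD genes were marked in 28 of 357 cases at day 5 (7.84%) and 22 without doxycycline (6.16%). SNORA genes were marked in 10 of 182 cases at day 5 (5.49%) and 7 without doxycycline (3.85%). The 655 snoRNA genes with only a locus number had 2 marked genes, LOC124904795 and LOC124900430, the same 2 in both libraries (0.305%, 0.037 to 1.1%). LOC124904795 lay at chr19:55167171-55167274 beside a peak of 20 fragments at day 5 and 12 without doxycycline, with summits 329 and 151 bp from the nearest end of DNAAF3.

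**Figure D1:**
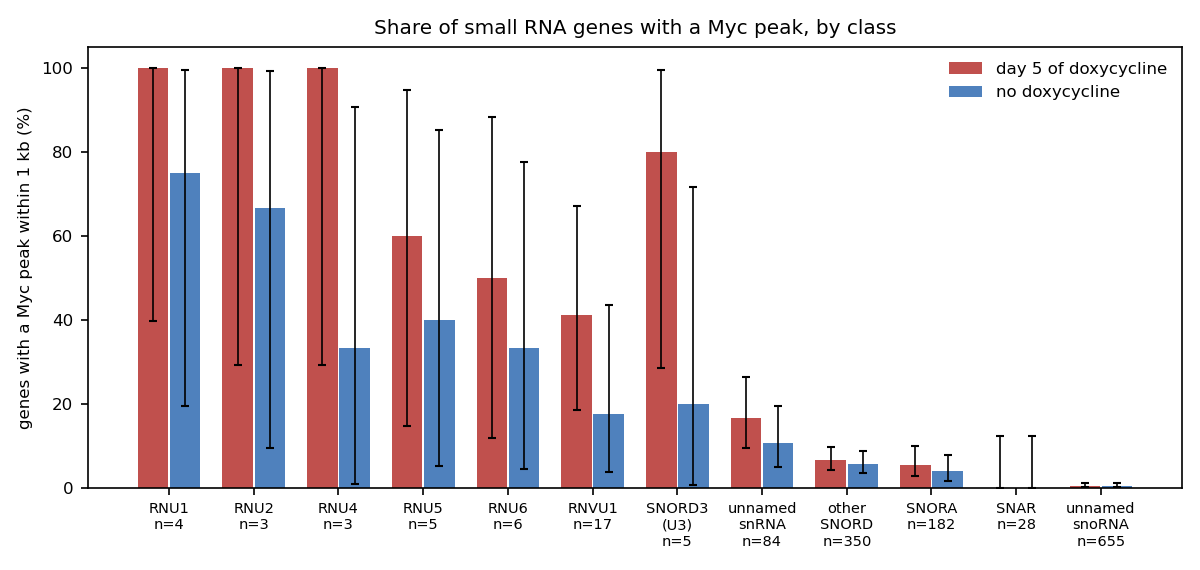
Percentage of genes in each class with a Myc peak within 1 kb of the span, at day 5 of doxycycline (red) and without doxycycline (blue), with the number of genes under each class and exact 95% binomial intervals. The named spliceosomal classes and SNORD3 are at 41.2% or more at day 5, and SNAR and unnamed snoRNA genes are at or near 0; "other SNORD" leaves out the 7 SNORD genes with promoters of their own.

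Peak strength is given as the number of fragments over the summit, recovered from the deposited fold and p-value. The lists held 6718 peaks at day 5 and 3468 without doxycycline on these chromosomes, with medians of 12 and 11 fragments at the summit. The 71 day 5 peaks at snRNA or snoRNA genes had a median of 20 fragments, and the 49 without doxycycline had 14. Of these, 34 (47.9%) and 22 (44.9%) were in the top 25% of their list by q-value. The lists do not give the depth of the libraries, which can differ, so fragments are read within a library. Fragment intervals below are exact Poisson 95% intervals and cover counting error only. No IgG library was set against the lists here, so some peaks can be background.

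A list of 48 genes with promoters of their own, drawn from textbook knowledge, held 30 marked genes at day 5 (62.5%, 47.4 to 76%) and 16 without doxycycline (33.3%, 20.4 to 48.4%). Within 1 kb of an end, 27.5% of protein-coding genes had a peak at day 5 and 14.5% without doxycycline. Leaving aside the 17 RNVU1 genes, variant U1 copies in the duplicated middle of chromosome 1, 23 of 31 were marked at day 5 (74.2%) and 13 without doxycycline (41.9%). Of the 24 genes made by RNA polymerase II, 19 were marked at day 5 and 10 without doxycycline. Of the 7 made by RNA polymerase III, 4 were marked at day 5 and 3 without doxycycline. The intervals of these polymerase groups overlap widely, 57.8 to 92.9% against 18.4 to 90.1% at day 5.

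U1 snRNA, which pairs with the start of each intron, is encoded by RNU1-1 to RNU1-4 on chromosome 1, and all 4 were marked at day 5. RNU1-3 (chr1:16666785-16666948) had 47 fragments at day 5 (34.5 to 62.5) and 20 without doxycycline (12.2 to 30.9). RNU1-4 (chr1:16740516-16740679) had 39 at day 5 and 19 without doxycycline. RNU1-2 had 29 at day 5 and 14 without doxycycline. RNU1-1 had 26 at day 5 and no peak nearer than 98.7 kb without doxycycline. Every one of these summits lay within 195 bp of the gene or inside it, and for RNU1-1 to RNU1-3 the nearest end of any coding or long non-coding gene was over 5 kb away. The summits at RNU1-4 were 1 and 30 bp from an end of LOC124903859. The 4 genes are near-identical, so the aligner can place a read from one at another. The RNVU1 copies were weaker: 7 of 17 had a peak at day 5, of 5 to 14 fragments, and 3 had one without doxycycline, of 4 to 8. RNVU1-7 was highest in both libraries, with 14 fragments at day 5 and 8 without doxycycline. RNVU1-30 followed at day 5 with 11 fragments, RNVU1-14 with 9 and RNVU1-31 with 8. RNVU1-3, RNVU1-4 and RNVU1-19 had 5 each. RNVU1-14 was also in the list without doxycycline at 4 fragments, and RNVU1-15 was listed there alone at 6. The remaining RNVU1-1, RNVU1-6, RNVU1-8, RNVU1-17, RNVU1-18, RNVU1-26, RNVU1-27, RNVU1-28 and RNVU1-2A had no peak in either library.

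U2 snRNA, which pairs with the branch point, had all 3 of its annotated genes marked at day 5. RNU2-2 (chr11:62841619-62841809) overlaps an end of WDR74 and had 23 fragments at day 5 and 17 without doxycycline, with summits 29 and 3 bp from both the gene and that end, so the 2 genes cannot be told apart there. RNU2-63P, a copy whose symbol marks it as a pseudogene, had 12 fragments in each library. RNU2-1 (chr17:43233790-43233977), the annotated gene of the U2 repeat on chromosome 17, had 31 at day 5 (21.1 to 44.0) and no peak within 11.8 kb without doxycycline.

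U4, U5 and U6 make up the other spliceosomal RNAs of the major class. RNU4-1 and RNU4-2, which encode the RNA that chaperones U6, are neighbours and shared 1 peak of 15 fragments at day 5, with its summit 289 bp from RNU4-2 and 901 bp from RNU4-1. No peak was listed near them without doxycycline. Of the U5 genes, whose RNA aligns the exons, RNU5B-1 had 12 fragments at day 5 and 6 without doxycycline. RNU5E-1 had 15 fragments and RNU5F-1 had 12, both at day 5 only, and RNU5D-1 had 9 without doxycycline only. RNU5A-1 had no peak nearer than 7.83 kb in either library. Of the U6 genes, RNU6-2 had 14 fragments at day 5 and 17 without doxycycline, and RNU6-1 had 12 at day 5 only. RNU6-7, RNU6-8 and RNU6-9 had none nearer than 31.6 kb. The day 5 summits of RNU6-1 and RNU6-2 were each 8 bp from the gene.

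The minor spliceosome, which removes a rare kind of intron, uses U11, U12, U4atac and U6atac. RNU11 (chr1:28648600-28648734) had 20 fragments at day 5 and 11 without doxycycline, with the day 5 summit 222 bp from the gene and 109 bp from an end of TAF12. RNU4ATAC had 18 at day 5 and 12 without doxycycline. RNU6ATAC (chr9:134164439-134164564) had 28 at day 5 and 11 without doxycycline, and its day 5 summit was 661 bp from the gene. RNU12 had no peak nearer than 16.8 kb in either library. Beside the spliceosomal genes, RNU7-1, whose RNA guides the processing of histone messenger RNA ends, had 11 fragments at day 5 only, with the summit 304 bp from the gene and 749 bp from an end of its host C12orf57. RN7SK (chr6:52995620-52995951), whose RNA holds the elongation factor P-TEFb inactive, had 38 fragments at day 5 (26.9 to 52.2) and 39 without doxycycline (27.7 to 53.3). These peaks ranked 157 in the day 5 list and 57 in the list without doxycycline. Depth can differ between the libraries, so the 2 numbers of fragments do not show whether binding was the same. The RN7SK summits were 203 and 124 bp from the gene and 133 and 212 bp from an end of GSTA4.

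Among snoRNAs with promoters of their own, U3, which guides cleavage of the ribosomal RNA precursor, is encoded by the SNORD3 genes on chromosome 17. SNORD3A (chr17:19188016-19188232) had 33 fragments at day 5 and 31 without doxycycline, with the summit inside the gene in both. SNORD3C had 26 at day 5, SNORD3D had 15 and SNORD3B-1 had 10, and none of the 3 had a peak within 1 kb without doxycycline. SNORD3B-2 had no peak within 1 kb in either library. These genes too are near-identical copies. SNORD13 (chr8:33513475-33513578), whose RNA takes part in ribosomal RNA acetylation, had 15 fragments at day 5 and 14 without doxycycline. SNORD118 had no peak nearer than 13.3 kb.

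**Figure D2:**
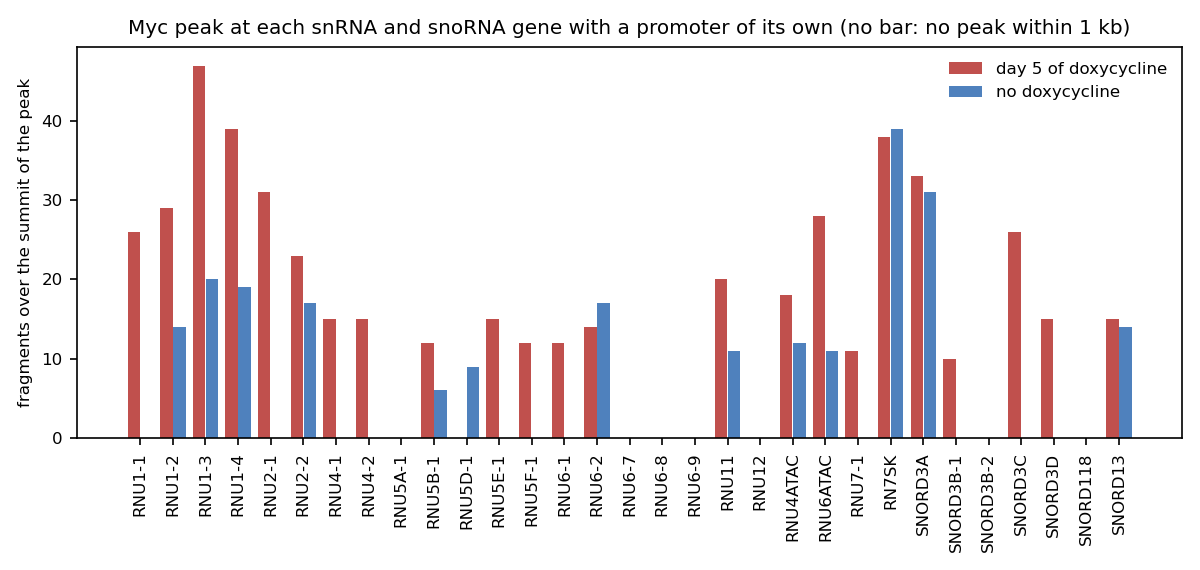
Fragments over the summit of the nearest Myc peak within 1 kb of each snRNA and snoRNA gene with a promoter of its own, leaving out the RNVU1 copies, at day 5 of doxycycline (red) and without doxycycline (blue); no bar means no peak. RNU1-3 has the highest bar at day 5 and RN7SK the highest without doxycycline. Depth can differ between the libraries, so heights are read within a library.

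Most of the unnamed snRNA genes with peaks lay together. After RNU2-1, chromosome 17 holds 13 snRNA genes with only a locus number, from chr17:43239921 to 43368087. The stretch from the start of RNU2-1 to the end of the last of them is 134.0 kb long. With RNU2-1 they are 188 to 192 bp long, and 5 of the gaps between their starts were 6131 to 6161 bp. The last, LOC124904147, starts 67858 bp after the start of the one before it. At day 5, 12 of the 13 were marked, with 15 to 89 fragments, and without doxycycline 8 were, with 23 to 55. LOC124904138 (chr17:43251829-43252019) had 89 fragments at day 5 (71.5 to 109.5), rank 20 of the list, and 55 without doxycycline (41.4 to 71.6), rank 29. LOC124904141 had 68 at day 5 and 44 without doxycycline, LOC124904144 had 65 and 38, LOC124904142 had 65 and 34, LOC124904139 had 58 and 28, and LOC124904145 had 57 and 36. LOC124904140 had no peak in either library. LOC124904135 and LOC124904136 shared 1 peak of 35 fragments, at day 5 only. Median distances from summit to gene were 89 bp at day 5 and 51 bp without doxycycline, while the summit at LOC124904138 was 20461 bp from the nearest coding or long non-coding gene end at day 5 and 20745 bp without doxycycline.

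The local background under these peaks was 1.92 to 9.66 fragments at day 5 and 2.49 to 4.38 without doxycycline. The 95th percentile of background over each list was 3.29 at day 5 and 2.45 without doxycycline, so every peak of the stretch was above it except, at day 5, that beside LOC124904147. These genes are repeated copies, and the part that copy number or shared reads has in the peaks was not tested. The RNVU1 peaks had backgrounds of 0.308 to 0.925 at day 5 and 0.311 to 0.518 without doxycycline, under the list medians of 1.06 and 0.863. Without the U1, variant U1 and U2 classes and this stretch, 37 genes in all, 54 of 1313 genes were marked at day 5 and 39 without doxycycline. All 37 are snRNA genes, and with them left out the snRNA shares were below those of all genes in both libraries. The snRNA genes left were mostly SNAR genes and genes with only a locus number. The RNU4, RNU5 and RNU6 classes stayed above the shares of all genes in both libraries.

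**Figure D3:**
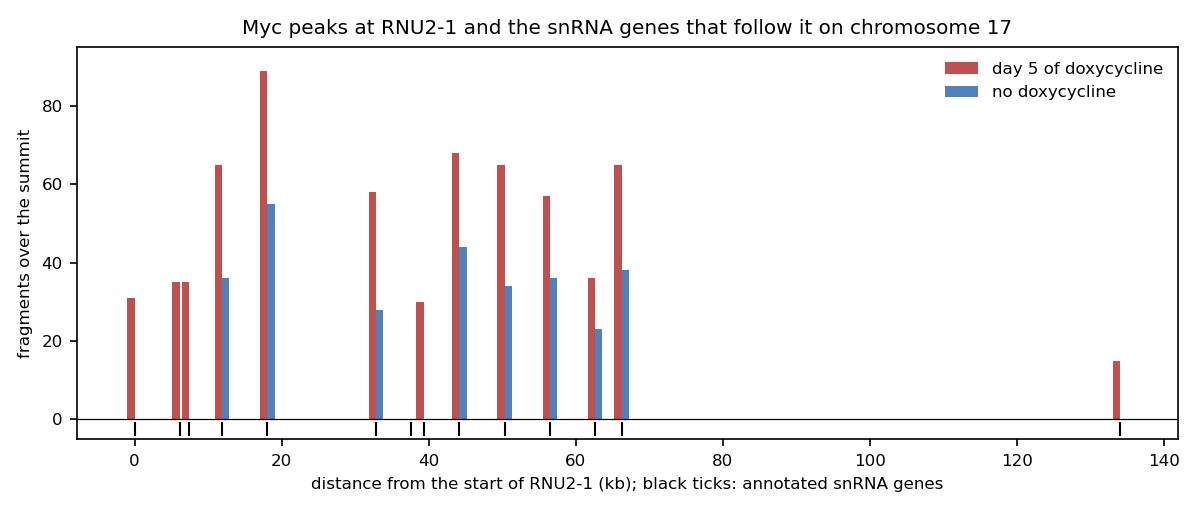
Fragments over the summit of the Myc peak within 1 kb of RNU2-1 and of the 13 unnamed snRNA genes that follow it on chromosome 17, by distance from the start of RNU2-1 in kb, at day 5 of doxycycline (red) and without doxycycline (blue); black ticks mark the genes and the bars of a gene stand side by side. Bars reach 89 at day 5 and 55 without doxycycline at LOC124904138, and RNU2-1 itself has a bar at day 5 only.

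At the SNORD and SNORA genes outside the list of own promoters, the peaks were centred on ends of other genes. Of these 532, 33 were marked at day 5 (6.2%) and 27 without doxycycline (5.08%). The summit was a median of 973 bp from the snoRNA gene at day 5 and 843 bp without doxycycline. It was a median of 210 bp from the nearest end of a coding or long non-coding gene at day 5 and 120 bp without doxycycline. The summit was nearer that gene end than the snoRNA in 32 of 33 cases at day 5 and 25 of 27 without doxycycline. For the list with own promoters the summit was a median of 173 bp from the gene at day 5 and 103.5 bp without doxycycline, and was nearer the small RNA gene in 24 of 30 and 14 of 16 cases. No summit lay inside an intronic SNORD or SNORA gene in either library. SNORA80C, without a host here, had 23 fragments at day 5 only, with the summit 1294 bp from an end of ZNF771.

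**Figure D4:**
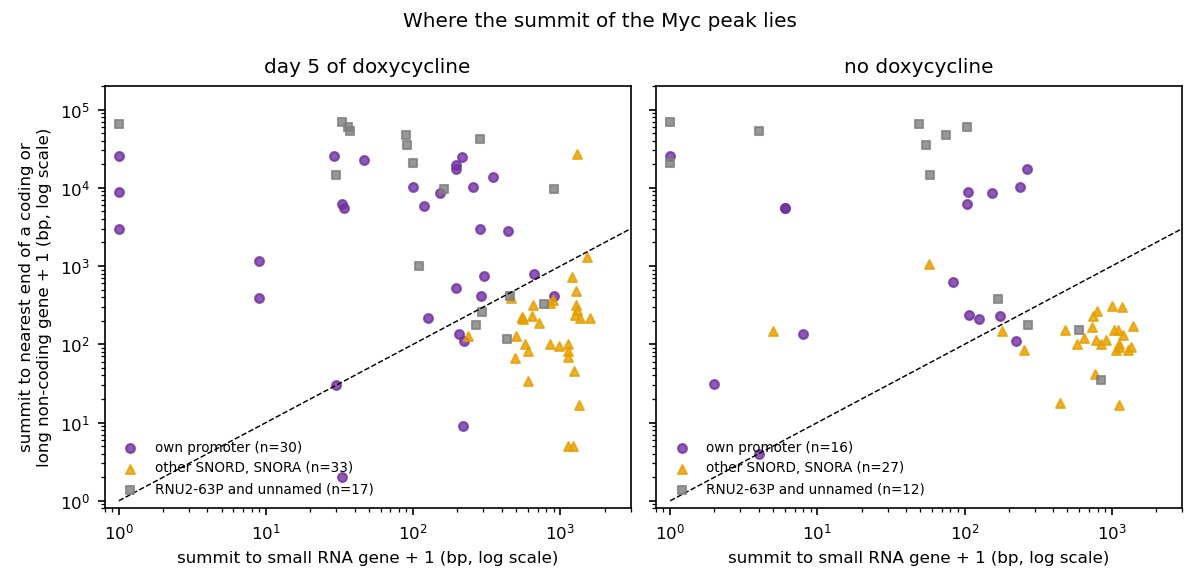
Distance from the peak summit to the marked small RNA gene (horizontal) and to the nearest end of a coding or long non-coding gene (vertical), each plus 1 bp on a log scale, at day 5 of doxycycline (left) and without doxycycline (right); each point is 1 marked gene and the dashed line marks equal distances. Genes with promoters of their own lie mostly above the line and other SNORD and SNORA genes below it, in 32 of 33 cases at day 5 and 25 of 27 without doxycycline.

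Within host genes, 506 SNORD and SNORA genes lay in 260 hosts. Of these, 31 were marked at day 5 and 26 without doxycycline, and the same peak reached within 1 kb of an end of the host in 30 of 31 and 26 of 26 cases. The exception was SNORA99 in GATA4, a peak of 7 fragments 27140 bp from the nearest end of the host, at day 5 only. Closeness to an end of the host went with being marked. Within 1 kb of an end, 19 of 70 snoRNA genes were marked at day 5 (27.1%) and 17 without doxycycline (24.3%). At 1 to 2 kb the counts were 9 of 70 at day 5 and 7 without doxycycline, and at 2 to 5 kb they were 2 of 93 in each library. Beyond 5 kb, 1 of 273 was marked at day 5 and none without doxycycline. Since a peak had to reach within 1 kb, part of this fall is set by the window itself. Among hosts with a peak at a known start, 17 of 18 snoRNA genes within 1 kb of it were marked at day 5 and 12 of 13 without doxycycline. The windows come close to fixing these shares. In hosts without such a peak, none of 174 snoRNA genes was marked at day 5 and none of 237 without doxycycline.

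**Figure D5:**
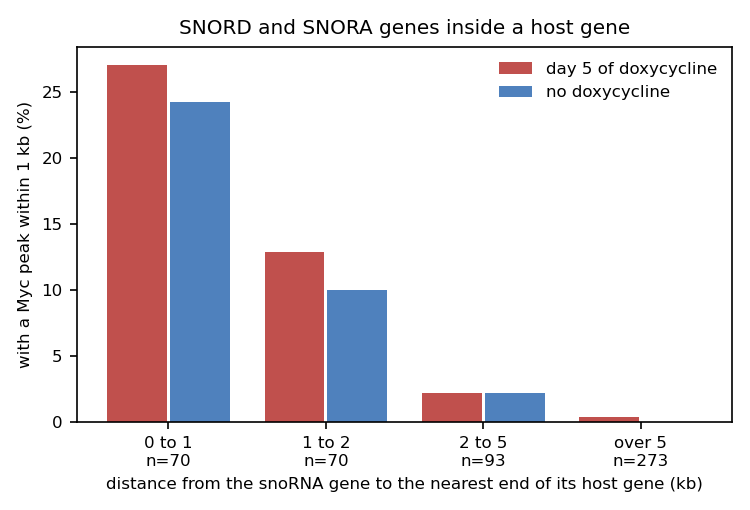
Percentage of SNORD and SNORA genes inside a host that have a Myc peak within 1 kb, by distance in kb to the nearest end of the host, at day 5 of doxycycline (red) and without doxycycline (blue), with the number of genes in each bin. The shares are 27.1% at day 5 and 24.3% without doxycycline in the first bin, and 0.366% and 0 beyond 5 kb.

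The hosts themselves carried peaks more often than the snoRNA genes in them. A peak lay within 1 kb of an end in 137 of 260 hosts at day 5 (52.7%, 46.4 to 58.9%) and in 89 without doxycycline (34.2%, 28.5 to 40.3%). Over the 200 hosts with a start in the promoter table, 113 had a peak within 1 kb of a start at day 5 (56.5%) and 68 without doxycycline (34.0%). The shares for all genes with a start were 30.1% of coding and 10.2% of long non-coding genes at day 5, and 16.0% and 5.36% without doxycycline. Of 29 hosts with a ribosomal protein symbol, 1 of them the pseudogene RPL32P3, 23 had a peak at an end at day 5 and 17 without doxycycline. Of 23 SNHG hosts, long non-coding genes named for the snoRNAs they hold, 15 had one at day 5 and 11 without doxycycline. Of all long non-coding genes, 8.31% had a peak within 1 kb of an end at day 5 and 4.37% without doxycycline. Of all protein-coding genes, 27.5% had one at day 5 and 14.5% without doxycycline. No test was made of these differences.

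Within hosts, the day 5 peaks with the most fragments beside marked snoRNA genes were at SNHG15, ZFAS1 and GAS5, all long non-coding. Without doxycycline they were at SNHG15 and GAS5. Other long non-coding hosts below had fewer fragments than the coding host RACK1. SNORA9 (chr7:44985378-44985510) in SNHG15 was marked by a peak of 116 fragments at day 5 (95.9 to 139.1), rank 6 of the list, and 67 without doxycycline (51.9 to 85.1), rank 21. Its summits lay 67 and 151 bp from an end of SNHG15 and over 1 kb from SNORA9. SNORD12C in ZFAS1 was beside a peak of 59 fragments at day 5 (44.9 to 76.1) and none without doxycycline. GAS5, host of 11 snoRNA genes, had 3 marked in both libraries, SNORD74, SNORD75 and SNORD76, by 1 peak of 41 fragments at day 5 and 32 without doxycycline, whose summit lay nearer an end of the neighbouring gene ZBTB37, 214 and 84 bp away. SNHG1, host of 8, had SNORD25, SNORD26 and SNORD27 marked in both libraries by 1 peak of 24 fragments at day 5 and 15 without doxycycline, with the summit 100 bp from an end of SLC3A2. SNHG29 had SNORD49A and SNORD49B marked at day 5 by a peak of 28 fragments, and SNORD49B alone without doxycycline by one of 20. SNHG5, which had no marked snoRNA gene, had a peak of 49 fragments at day 5 and 20 without doxycycline near its start. Neither of its SNORD50A and SNORD50B was marked.

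Among coding hosts with a marked snoRNA gene, RACK1 had the most fragments. SNORD95 in RACK1 was beside a peak of 35 at day 5 and 26 without doxycycline. SNORA7A in RPL32 was beside a peak of 24 fragments at day 5 and 12 without doxycycline, with summits 4 and 16 bp from an end of RPL32. SNORD105 in PPAN, which encodes a ribosome assembly factor, was beside one of 28 fragments at day 5 only. SNORA14B in TOMM20 was beside one of 19 at day 5 and 9 without doxycycline. Other coding hosts had a peak at the start and no marked snoRNA gene. TAF1D, a subunit of an RNA polymerase I factor and host of 8, had 24 fragments at day 5 and 14 without doxycycline at its start. NOP56, itself a core protein of box C/D particles and host of 5, had 24 at day 5 and 16 without doxycycline. RPLP2 had 52 at day 5 and 33 without doxycycline, with its 1 snoRNA gene unmarked in both.

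The hosts of the imprinted clusters, SNHG14 (596.0 kb) and MEG8 (109.0 kb), held many snoRNA genes and no listed peak anywhere in their spans. SNHG14 on chromosome 15, known for the SNORD115 and SNORD116 repeats lost in Prader-Willi syndrome, was the assigned host of 79 snoRNA genes, and none was marked in either library. Over the whole annotation, 0 of 48 SNORD115 genes and 0 of 30 SNORD116 genes were marked, which allows shares of up to 7.4% and 11.6%. MEG8 on chromosome 14, with 9 SNORD113 and 31 SNORD114 genes, also had none. Neither host had a peak within 1 kb of an end. The shorter genes PWAR5, PWARSN and PWAR4, inside the SNHG14 span, were counted as hosts of 2, 1 and 1 more snoRNA genes, none of them marked. Cluster copies are not independent of each other.

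Of the marked genes, 50 were marked in both libraries (3.7% of the 1350, against 7.01% of all genes), 62.5% of those at day 5 and 90.9% of those without doxycycline. For protein-coding gene ends these shares were 47.0% and 89.1%. The 30 genes marked at day 5 only are 2.22% of the 1350, against 7.7% of all genes. The 5 marked without doxycycline only are 0.37%, against 0.941%. Span lengths were not matched in these shares of all genes. Those 5 were SNORA21 in RPL23 with 14 fragments, SNORD24 in RPL7A with 12, RNU5D-1 with 9, RNVU1-15 with 6 and SNORD54 in RPS20 with 4. The peak beside SNORD24 had its summit 91 bp from an end of MED22. RPL7A had a peak within 1 kb of its start at day 5 too, of 18 fragments, which did not reach within 1 kb of SNORD24. Of the 30 at day 5 only, SNORD12C, SNORD105, RNU1-1, SNORD49A and SNORA80C had the highest ranks. The host of SNORD49A, SNHG29, had a peak in both lists, of 28 fragments at day 5 and 20 without doxycycline. The latter did not reach within 1 kb of SNORD49A. The day 5 list is longer. When only its 3468 highest-ranked peaks were used, as many as the other list holds, 60 genes were marked at day 5 against 55 without doxycycline, with 31 against 24 snRNA and 29 against 31 snoRNA genes. The own-promoter list then had 22 against 16 marked genes. With the same peaks, protein-coding gene ends gave 3146 against 2893.

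Genes for the factors that make these RNAs were read by peaks within 1 kb of an end. Of 13 snRNA promoter factors, 8 had a peak at day 5 and 5 without doxycycline, among them ELL, of the little elongation complex at snRNA genes, with 34 fragments at day 5 and 29 without doxycycline. Of 15 Integrator subunits, which cut the 3′ ends of snRNA precursors, 8 had a peak at day 5 and 5 without doxycycline, and INTS13 had the most with 38 at day 5 and 27 without doxycycline. Of the 4 box C/D core proteins, 3 had a peak at day 5 and 2 without doxycycline, and SNU13 had none. Of the 4 box H/ACA core proteins, 3 had a peak at day 5 and 1 without doxycycline, with DKC1, the pseudouridine synthase, at 53 fragments at day 5 and 25 without doxycycline. Of 12 genes for snoRNP assembly, 3 had a peak at day 5 and 4 without doxycycline. The shares were above the 27.5% and 14.5% of coding genes in both libraries for the first 4 lists, on few genes each. The assembly list was below the share of coding genes at day 5 and above it, at 33.3%, without doxycycline.

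Related small RNA genes outside the 2 biotypes were read the same way. Of 29 SCARNA genes, whose RNAs guide modification of snRNAs, 4 were marked at day 5 (13.8%) and 2 without doxycycline (6.9%), near the 14.7% and 7.95% of all genes. SCARNA13 had 22 fragments at day 5 and 10 without doxycycline, SCARNA17 had 15 and 6, and SCARNA2 and SCARNA16 had 10 each at day 5 only. RMRP, the RNA of RNase MRP, had 28 fragments at day 5 and 14 without doxycycline. RPPH1, the RNA of RNase P, had 17 at day 5 and 15 without doxycycline. TERC, the telomerase RNA, had 15 at day 5 and 8 without doxycycline. Of 4 vault RNA genes, 3 were marked at day 5 and 1 without doxycycline, and of 4 Y RNA genes, RNY5 was marked in both libraries, with 26 fragments at day 5 and 16 without doxycycline.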

How the data were processed

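Myc CUT&Tag peak lists of 2 libraries were used, grouped by their titles. The submitters' processing notes name MACS2, Bowtie2, Trim Galore and deepTools and the build hg38. Their versions, settings and any use of an IgG control were not stated in the sources used here. Each deposited list has, per the file layout, 1 row per peak, and peaks were called per library with no sign of pooling. The authors deposited a score for each peak, a fold (a ratio of summit signal to local background), and −log10 p and −log10 q values at the summit. They served to rank peaks and to recover fragments. With fold as (fragments + 1)/(background + 1) and p as a Poisson tail, whole numbers of fragments came out within 0.001 for 99.97% of peaks at day 5 and 99.9% without doxycycline. Total reads are not in the lists.

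Gene spans came from RefSeq GRCh38.p14, without strand. A host was the smallest coding, long non-coding or transcribed pseudogene span containing a small RNA gene, named symbols before locus numbers. Peaks on other contigs, 235 at day 5 and 91 without doxycycline, were left out. Shares have exact Clopper-Pearson and fragments exact Poisson 95% intervals (Python 3.11.15, scipy 1.17.1). Members and gene lists were chosen with earlier results of these data known. Named genes were the 10 highest-ranked in both lists and in each list alone, up to 4 of each class, all genes with promoters of their own and the main hosts; others illustrate hosts. On simulated data, 99.99% of fragment numbers at day 5 and 100% without doxycycline were recovered, and 200 of 200 planted peaks were found. Alternatives changed the window, the peaks used and the joining of genes. The result for 1 host gene is not reported here.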

Additional observations from a re-analysis of the deposited data

How the results depend on the processing

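The counts of marked genes depended on the window. When a peak had to overlap the gene itself, 42 genes were marked at day 5, 30 without doxycycline and 26 in both. With a window of 2500 bp the counts were 146, 103 and 95. At 1 kb, the outermost marked gene at day 5 was SNORD49A, 999 bp from its peak, and the nearest unmarked one was SNORA84 at 1060 bp. Without doxycycline these were SNORA71D at 951 bp and LOC124901209 at 1001 bp. Under the other alternatives, 22 counts stayed within 1.5 times of those reported, among them those for a window of 500 bp (61 at day 5, 38 without doxycycline), the summit within 1 kb (64 and 44), and the upper part of each list (60 and 39). Among the 22, the count of 55 without doxycycline under equal numbers of peaks could not change, because only the day 5 list was cut. The counts of hosts with a peak at the start, taken over coding hosts only, had little room to change. Coding hosts were 169 of the 200 hosts with a start. Leaving out the repeated U1 and U2 genes was chosen after seeing the data. No paired analysis was possible because each condition has 1 library and the counts come from no test.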
